A study of Mus musculus with 10 samples.

Results

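A set of 10 genes that move, store or sense calcium in neurons were followed in the hippocampus, the brain region that forms new memories, of old mice on 2 diets. They are the calcium sensors Hpca, Hpcal1 and Vsnl1, the buffer Calb1, the pumps Atp2a2, Atp2b1 and Atp2b2, the exchanger Slc8a1 and the store channels Itpr1 and Ryr3. Members were all probe sets that the platform's annotation gives to only 1 of these genes. That gave 8 of the 8251 genes with such a probe set, measured by 11 of the 12488 probe sets in the table. Atp2b1 and Itpr1 had no such probe set and are not analysed here. A probe set pools the short probes that read out 1 transcript. Slc8a1 had 3, Ryr3 had 2 and each of the other 6 genes had 1.

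The 5 calorie restricted and 5 control mice were male C57BL/6 animals aged 30 months, with 1 mouse per Affymetrix array. Calorie restriction was long-term, and neither its degree nor the age at which it began is given in the sources used here. Total RNA came from the whole dissected hippocampus, so that fewer cells of a type and less RNA per cell cannot be told apart in any result. Signals are given on the log2 scale, with each array centred on the median of its tested probe sets, and changes are calorie restricted minus control.

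Neurons use calcium entry to release transmitter and to change the strength of synapses, and then clear it quickly. Plasma membrane pumps (the Atp2b genes) and the sodium-calcium exchanger Slc8a1 push calcium out of the cell, while Atp2a2 pumps it into the endoplasmic reticulum. Channels of the Itpr and Ryr families let it out of that store again. Calb1 encodes calbindin, a buffer abundant in dentate granule cells, and Hpca, Hpcal1 and Vsnl1 encode sensors that attach to membranes when calcium is bound.

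One member probe set differed between the diets. The signal of Ryr3 101830_at was lower in calorie restricted mice, with a fold of 0.479 and a log2 change of -1.06 ± 0.24 (SE, n = 5 per diet; limma adjusted p = 0.0208). The second probe set of Ryr3 lay on the other side of 0, at 0.84 ± 0.39 (SE; limma adjusted p = 0.168). Atp2b2 95324_at had -1.29 ± 0.42 (SE) and missed the threshold (limma adjusted p = 0.0655). The sensors, calbindin, the store pump Atp2a2 and the exchanger did not pass.

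Of the 11 probe sets, 9 passed the filter on low signal and were tested, and 2 of Slc8a1 lay below it. Among the 9, 0 passed higher and 1 passed lower by limma at an adjusted p under 0.05, and 2 had an unadjusted p under 0.05. Of all 7453 tested probe sets 841 passed, or 11.3%, with 7.72% higher and 3.57% lower. An unadjusted p under 0.05 in limma was found for 2286 of the 7453. The share of members that passed is thus near the background. Their median change was 0.01, against 0.06 over all tested probe sets, and the median size of change was 0.51 against 0.42.

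The balance of directions over the array depended on the scale. Centring added 0.22 to every log2 change. On the deposited scale 883 probe sets passed, 306 higher and 577 lower, and after quantile normalization 603 did, 321 higher and 282 lower.

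The arrays differed in RNA quality. Probe sets at both ends of the Gapdh and Actb transcripts serve as controls, since broken RNA or short copies leave mostly the 3' end. The 3' signal of Gapdh was 82.7 and 160.7 times its 5' signal in calorie restricted replicates 3 and 5. The ratio was 1.24 to 1.98 in calorie restricted replicates 1, 2 and 4, against 0.815 to 1.53 in control mice. For Actb it was 16.4 and 29.7 in calorie restricted replicates 3 and 5 and 2.32 to 4.18 in the other 3, against 1.05 to 1.61 in control mice. The mean log2 ratio of both genes, used as a covariate, was 0.78 to 1.52 in calorie restricted replicates 1, 2 and 4, against -0.12 to 0.45 in control mice. Every calorie restricted array thus had a higher mean ratio than every control array, also without replicates 3 and 5. Results of the tested members and of the other calcium genes that passed are given with this covariate and without those replicates. Correlation of centred signals over tested probe sets ran from 0.725 to 0.924 between calorie restricted arrays, against 0.893 to 0.941 between control arrays. Hippocampal subfield genes with a probe set passed the filter in 8 of 9 cases, among them Neurod6, Wfs1 and Zbtb20, and Prox1 lay below it. Of all 8251 genes 5695 passed it, as did 5 of 6 choroid plexus and ependyma genes and 5 of 7 cerebellar genes. Passing the filter thus does not tell which tissue was taken. Of 11 pan-neuronal genes 10 passed the filter, of which 1 was higher and 1 lower in calorie restricted mice. Their summed linear signal ran from 50677 to 63270.5 in calorie restricted mice and from 37224 to 50466 in control mice, without overlap. Of the 10, 6 had changes above 0, among them the bright Snap25 at 0.69, and 4 had changes below 0, down to -3.34 for Syt1. The 10 astrocyte genes all passed the filter, 0 higher and 3 lower. Their sum ran from 24288 to 34595 in calorie restricted mice and from 16690.4 to 22545 in control mice, also without overlap. That sum went against most of the list, since 6 of the 10 had changes below 0, down to -2.06 for Atp1b2, while the bright Aldoc and Gja1 had 0.62 and 0.95. Both sums were made from centred signals, and centring added 0.22 to every log2 change. The neuronal ranges nearly touched, at 50677 against 50466. Sums on the deposited scale were not computed, so neither separation is known to hold there. The part of either sum in the results was not tested. The sums of the other 7 marker lists overlapped between the diets.

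**Figure D1:**
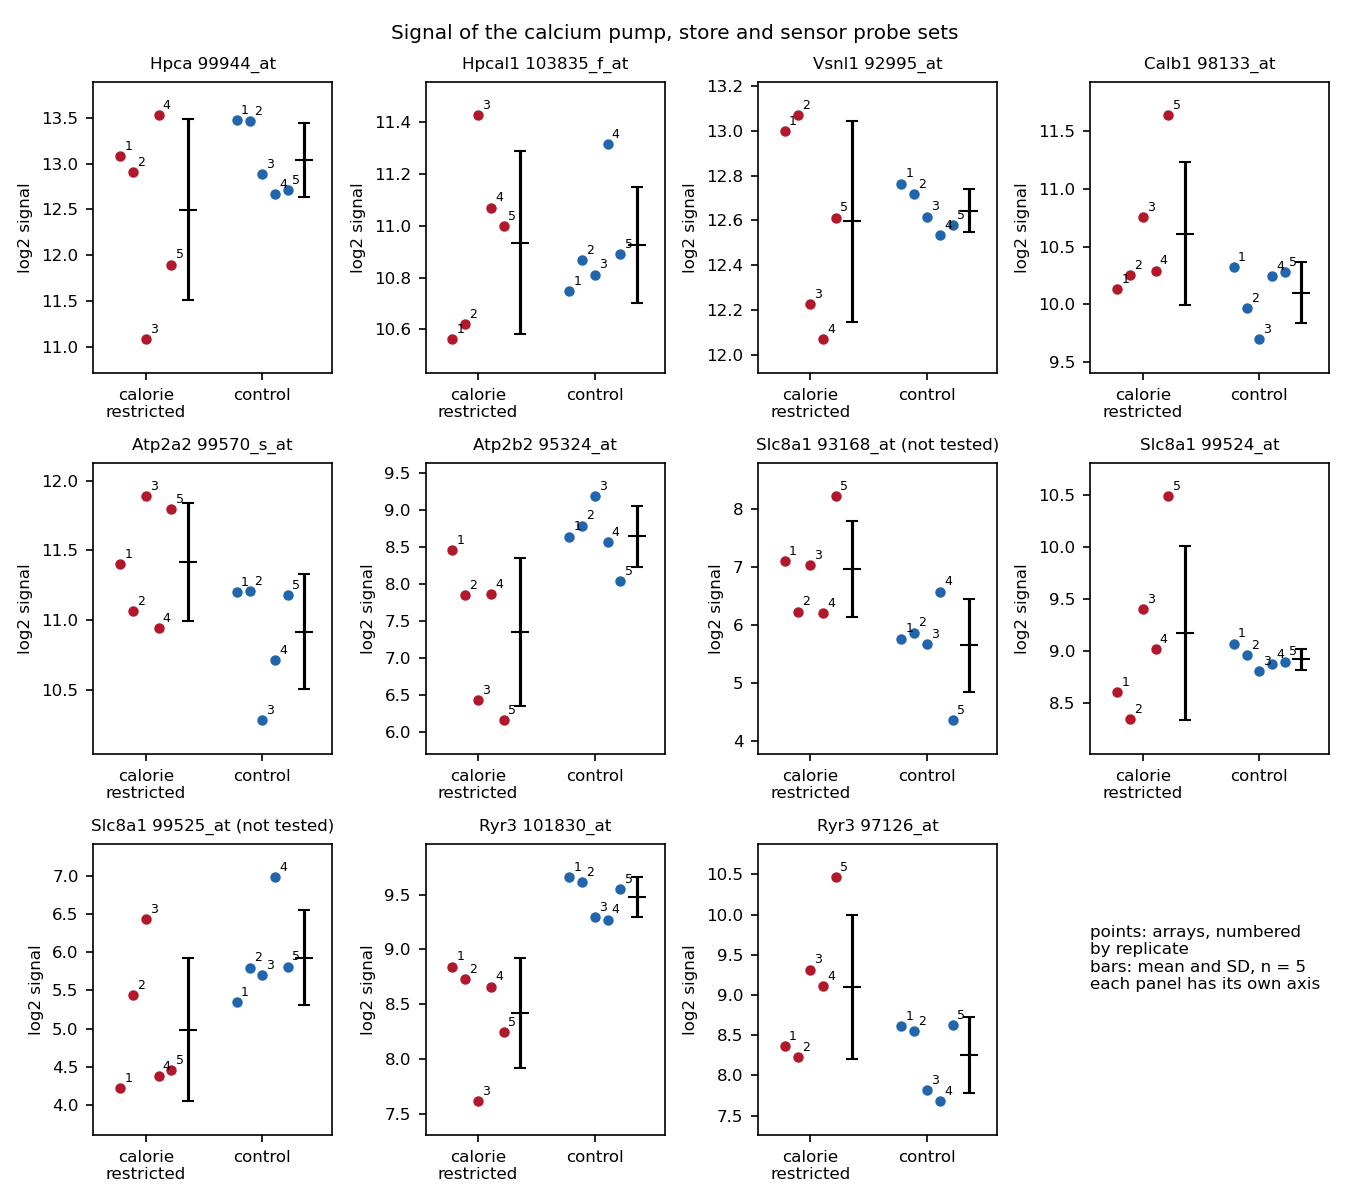
Log2 signal (vertical axis, a separate range in each panel) of the 11 member probe sets, with 1 point per array numbered by replicate, calorie restricted arrays in red and control arrays in blue. Bars give the mean and SD of 5 arrays. Only Ryr3 101830_at shows 2 groups that do not overlap.

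Ryr3 encodes a ryanodine receptor, a large channel that releases calcium from the endoplasmic reticulum when calcium itself rises. Probe set 101830_at had log2 signals of 8.84, 8.73, 7.61, 8.66 and 8.24 in calorie restricted replicates 1 to 5, against 9.66, 9.62, 9.30, 9.27 and 9.55 in control replicates 1 to 5. Every calorie restricted array lay below every control array, which held for 13.3% of all tested probe sets in 1 direction or the other. Calorie restricted arrays averaged 8.42 ± 0.50 and control arrays 9.48 ± 0.18 (SD, n = 5 each), and the 95% interval of the change ran from -1.58 to -0.54.

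Without calorie restricted replicates 3 and 5, the arrays with the highest 3' to 5' ratio, the change of 101830_at was -0.73 (95% interval -1.09 to -0.37; limma adjusted p = 0.0188). Those 2 arrays were the lowest of the 5. With the mean log2 3' to 5' ratio as a covariate the change was -0.64 and missed the threshold (limma adjusted p = 0.135). Leaving out control replicate 2 gave -1.03 and also missed the threshold (limma adjusted p = 0.0538). On the deposited scale and after quantile normalization it passed, at -1.28 and -1.08.

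The other Ryr3 probe set, 97126_at, had log2 signals of 8.36, 8.23, 9.32, 9.11 and 10.47 in calorie restricted replicates 1 to 5. Control replicates 1 to 5 had 8.61, 8.55, 7.82, 7.68 and 8.63. Calorie restricted replicates 3, 4 and 5 were above all control arrays, while replicates 1 and 2 lay among them. The 95% interval of the change was -0.01 to 1.69, and without replicates 3 and 5 the change was 0.31 (-0.36 to 0.98). With the 3' to 5' ratio as a covariate it was -0.05.

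The 2 Ryr3 probe sets were also set against each other within single arrays, which scaling of a whole array does not touch. Since this contrast was formed after their opposite directions were seen, it is a description with no test. The log2 signal of 101830_at minus that of 97126_at was 0.48, 0.50, -1.70, -0.45 and -2.22 in calorie restricted replicates 1 to 5, against 1.05, 1.07, 1.48, 1.59 and 0.92 in control replicates 1 to 5. All 5 calorie restricted values were below all 5 control values. Calorie restricted arrays averaged -0.68 ± 1.25 and control arrays 1.22 ± 0.30 (SD, n = 5 each), a difference of -1.90. It was -1.05 without calorie restricted replicates 3 and 5, which had the lowest values, and -0.59 with the 3' to 5' ratio as a covariate. The positions of the probes along the transcript were not analysed here.

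**Figure D2:**
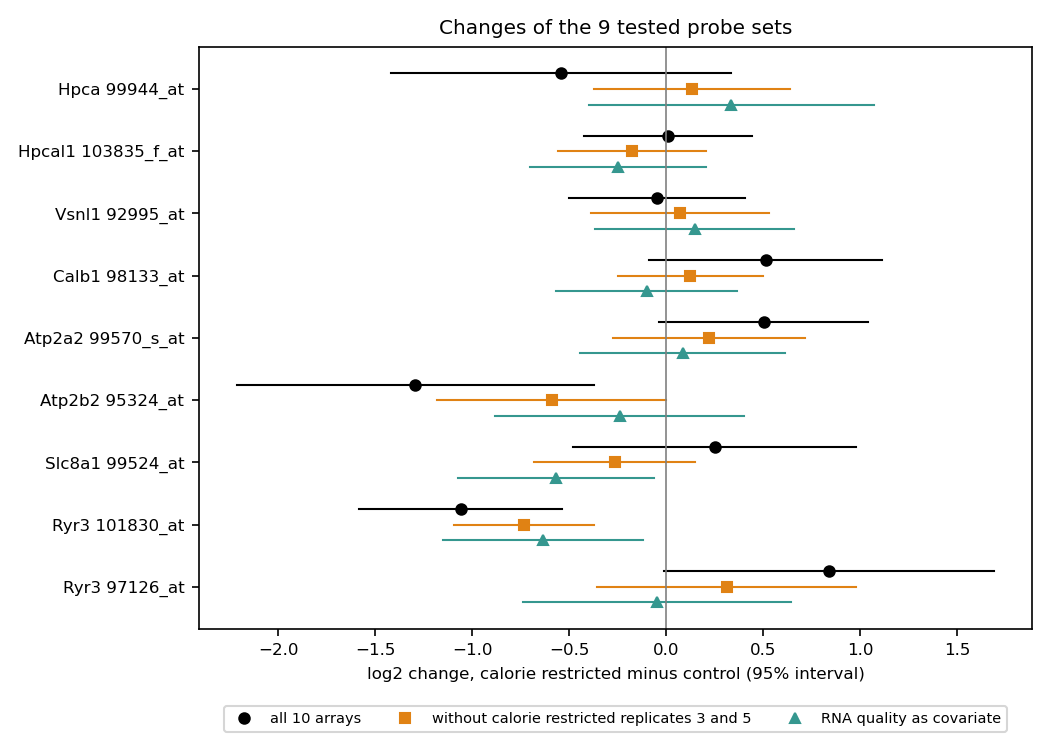
Log2 change, calorie restricted minus control, of the 9 tested probe sets with its 95% interval (horizontal axis), from all 10 arrays (black circles), without calorie restricted replicates 3 and 5 (orange squares) and with RNA quality as a covariate (green triangles). Ryr3 101830_at, at -1.06, -0.73 and -0.64, and Atp2b2, at -1.29, -0.59 and -0.24, both stay below 0 in the 3 fits. Neither passed with the covariate (limma adjusted p = 0.135 and 0.672).

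Atp2b2 encodes a fast plasma membrane calcium pump, found mainly in neurons and hair cells. Log2 signals of 95324_at were 8.45, 7.84, 6.43, 7.86 and 6.15 in calorie restricted replicates 1 to 5, against 8.63, 8.78, 9.18, 8.56 and 8.04 in control replicates 1 to 5. Calorie restricted replicates 3 and 5 were far below all others, replicates 2 and 4 were just below the lowest control array and replicate 1 lay within the control range, so the groups overlapped. The calorie restricted mean was 7.35 ± 0.998 and the control mean 8.64 ± 0.41 (SD, n = 5 each), and the 95% interval of the change was -2.21 to -0.37. Replicates 3 and 5 lay below 6.85, the lowest mean on the log2 scale that passed the filter, and without a measure of background the size of the difference is uncertain.

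The value of Atp2b2 moved with the arrays and the scale used. Without calorie restricted replicates 3 and 5 it was -0.59 (95% interval -1.18 to 0.0012; limma adjusted p = 0.172), and with the 3' to 5' ratio as a covariate -0.24 (limma adjusted p = 0.672). It passed on the deposited scale, at -1.51 (limma adjusted p = 0.0492), and without calorie restricted replicate 1, at -1.57 (limma adjusted p = 0.0297). After quantile normalization it was -1.20 and missed the threshold (limma adjusted p = 0.0784).

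Atp2a2 encodes the SERCA pump that refills the endoplasmic reticulum, in many tissues besides brain. Log2 signals of 99570_s_at, whose probes can match several transcripts, were 11.40, 11.06, 11.89, 10.94 and 11.80 in calorie restricted replicates 1 to 5. In control replicates 1 to 5 they were 11.20, 11.21, 10.28, 10.71 and 11.18. The groups overlapped, with calorie restricted replicates 1, 3 and 5 above all control arrays. The change was 0.50 (95% interval -0.04 to 1.04; limma adjusted p = 0.189). With calorie restricted replicates 3 and 5 left out it was 0.22, with the 3' to 5' ratio as a covariate 0.086 and after quantile normalization 0.13.

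Slc8a1 encodes the exchanger that trades sodium entry for calcium exit. Its tested probe set, 99524_at, had log2 signals of 8.60, 8.34, 9.40, 9.02 and 10.49 in calorie restricted replicates 1 to 5, against 9.07, 8.96, 8.80, 8.87 and 8.90 in control replicates 1 to 5. Calorie restricted replicates 1 and 2 were below every control array and replicates 3 and 5 above every one. Calorie restricted arrays had an SD of 0.84, against 0.10 among control arrays, a ratio of 8.35. The change of 0.25 (95% interval -0.48 to 0.98; limma adjusted p = 0.640) had no firm direction: it was -0.27 without calorie restricted replicates 3 and 5, -0.08 without replicate 5 and -0.57 with the 3' to 5' ratio as a covariate.

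The other 2 probe sets of Slc8a1 lay below the filter and were not tested. Probe set 93168_at had 7.11, 6.24, 7.04, 6.22 and 8.23 in calorie restricted replicates 1 to 5 and 5.77, 5.87, 5.68, 6.58 and 4.36 in control replicates 1 to 5. Probe set 99525_at had 4.22, 5.44, 6.44, 4.38 and 4.46 in calorie restricted replicates 1 to 5 and 5.34, 5.80, 5.70, 6.98 and 5.81 in control replicates 1 to 5. Their mean changes were 1.31 and -0.94 on the log2 scale, in opposite directions, and both diets overlapped in each.

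Hpca encodes hippocalcin, a myristoylated sensor named for the hippocampus, where it is abundant in pyramidal neurons. Log2 signals of 99944_at were 13.08, 12.90, 11.08, 13.53 and 11.90 in calorie restricted replicates 1 to 5, against 13.47, 13.46, 12.88, 12.67 and 12.71 in control replicates 1 to 5. Calorie restricted replicates 3 and 5 were the lowest of all arrays, and replicate 4 was the highest. Calorie restricted arrays averaged 12.50 ± 0.99 and control arrays 13.04 ± 0.40 (SD, n = 5 each). The change of -0.54 (95% interval -1.42 to 0.33; limma adjusted p = 0.383) became 0.13 (-0.37 to 0.64) without calorie restricted replicates 3 and 5, and 0.34 with the 3' to 5' ratio as a covariate. After quantile normalization it was -1.12 (-2.03 to -0.21; limma adjusted p = 0.110).

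Hpcal1 encodes a close relative of hippocalcin. Its probe set, 103835_f_at, is of a kind that can match several members of a family. Log2 signals were 10.56, 10.62, 11.43, 11.07 and 11.00 in calorie restricted replicates 1 to 5, against 10.75, 10.87, 10.81, 11.32 and 10.89 in control replicates 1 to 5. The groups overlapped, and the change was 0.01 with a 95% interval of -0.42 to 0.44 (limma adjusted p = 0.982). It was -0.21 on the deposited scale and -0.30 after quantile normalization, neither of which passed.

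Vsnl1 encodes visinin-like protein 1, another neuronal sensor of that family. Probe set 92995_at had log2 signals of 13.00, 13.07, 12.23, 12.07 and 12.61 in calorie restricted replicates 1 to 5, against 12.77, 12.72, 12.62, 12.53 and 12.58 in control replicates 1 to 5. Calorie restricted replicates 1 and 2 were above and replicates 3 and 4 below every control array. Calorie restricted arrays had a mean of 12.60 and an SD of 0.45, against 12.64 and 0.10 for control arrays. The change was -0.05 with a 95% interval of -0.50 to 0.41 (limma adjusted p = 0.895), and -0.61 after quantile normalization (limma adjusted p = 0.111).

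Calb1, the buffer calbindin, had log2 signals of 10.13, 10.25, 10.75, 10.29 and 11.64 in calorie restricted replicates 1 to 5. Control replicates 1 to 5 had 10.32, 9.96, 9.69, 10.24 and 10.28. Calorie restricted replicates 3 and 5 were above every control array and the other 3 lay among them. The change was 0.51 (95% interval -0.09 to 1.11; limma adjusted p = 0.226). It was 0.12 with calorie restricted replicates 3 and 5 left out and -0.10 with the 3' to 5' ratio as a covariate. Calbindin is also abundant in Purkinje cells of the cerebellum. Of 7 cerebellar genes with a probe set, Calb1 among them, 5 passed the filter and 0 passed the test. Without Calb1 their summed linear signal was 1209.8 to 2837 in calorie restricted arrays, against 1367 to 1879 in control arrays. Besides Calb1 the changes were 0.76 for Pcp2, a Purkinje cell gene, 0.57 for Zic1, 0.04 for Cbln1 and -0.31 for En2 (limma adjusted p = 0.254, 0.403, 0.901 and 0.597). Gabra6 of cerebellar granule cells and Car8 lay below the filter.

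**Figure D3:**
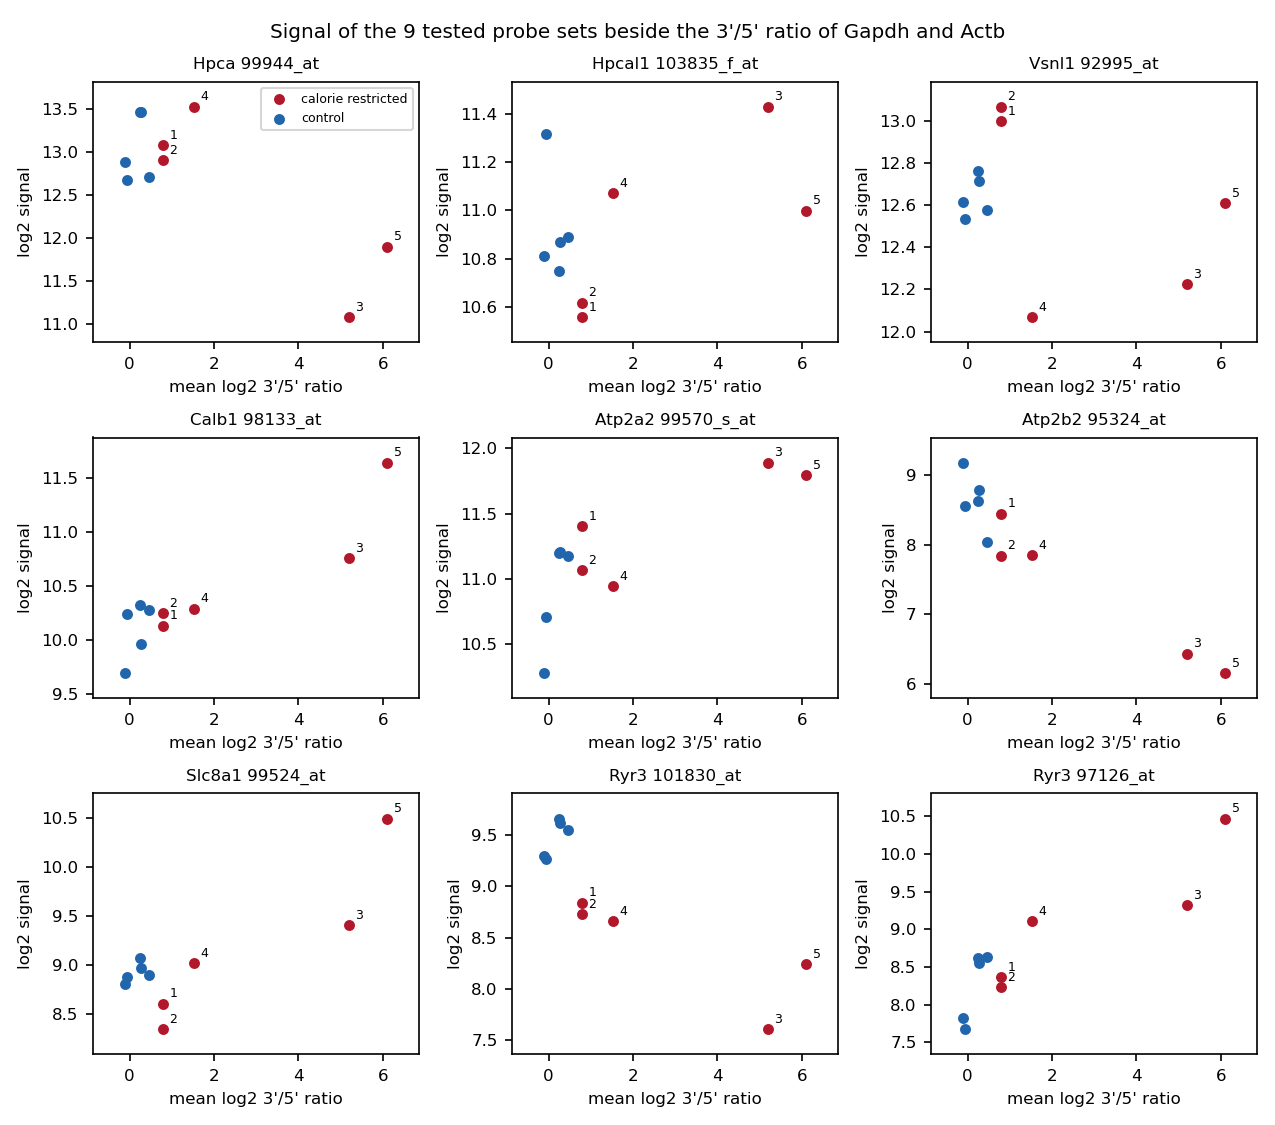
Log2 signal (vertical axis) of the 9 tested probe sets against the mean log2 3' to 5' ratio of Gapdh and Actb (horizontal axis), with 1 point per array, calorie restricted in red with replicate numbers and control in blue. Calorie restricted replicates 3 and 5, at 5.20 and 6.11, stand apart on the horizontal axis, and in 8 of the 9 panels 1 of them is the calorie restricted array farthest from the control mean.

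The members varied more among calorie restricted mice. In 9 of the 9 tested probe sets the SD was larger in calorie restricted than in control mice, against 76.7% of all tested probe sets. The median ratio of the SDs was 2.41 for the members and 1.69 over all tested probe sets. With calorie restricted replicates 1, 2 and 4 alone, the SD was larger than in control mice in 4 of the 9, against 50.7% over all. This sets an SD of 3 arrays against an SD of 5, so it cannot show that the spread was equal. The calorie restricted array farthest from the control mean was replicate 3 or 5 in 8 of the 9, against 67.2% over all. These shares are descriptions, since probe sets of 1 array are not independent.

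Of 80 other genes of calcium handling, 42 had a probe set for 1 gene only and 32 of these passed the filter, with the brightest probe set taken for each gene. In limma 3 rose, 0 fell and 29 did not pass. That is 9.38% of the genes tested, against 10.8% of all 5695 genes treated the same way (7.8% higher and 2.99% lower). Their median change was 0.06, against 0.10 over all genes.

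Among 3 tested pumps and exchangers 0 passed, and changes ran from -0.37 for Atp2a1 to 0.43 for Atp2c1, a pump of the Golgi. Among 18 genes of store channels and store proteins 0 passed, with a median of 0.18 and changes from -0.61 for Casq2, a calsequestrin that holds calcium in the store, to 1.13 for Ryr1. Ryr1, the ryanodine receptor best known from skeletal muscle, had 1.13 ± 0.35 (SE; limma adjusted p = 0.0526). The control mean of Ryr1 was 7.14, near 6.85, the lowest mean that passed the filter, and control replicate 3 had 5.93. Without a measure of background the size of that change is uncertain. Ryr2, the main form of heart and also of brain, had 0.65 ± 0.39 (SE; limma adjusted p = 0.270). Fkbp1b, an immunophilin that binds ryanodine receptors, had 0.63 ± 0.22 (SE; limma adjusted p = 0.0829). The highest signals of Ryr2 and Fkbp1b were those of calorie restricted replicate 5, at 11.54 and 11.89. These 6 genes did not pass and were picked after their values were seen. Their changes are not given with the 3' to 5' ratio as a covariate or without calorie restricted replicates 3 and 5.

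**Figure D4:**
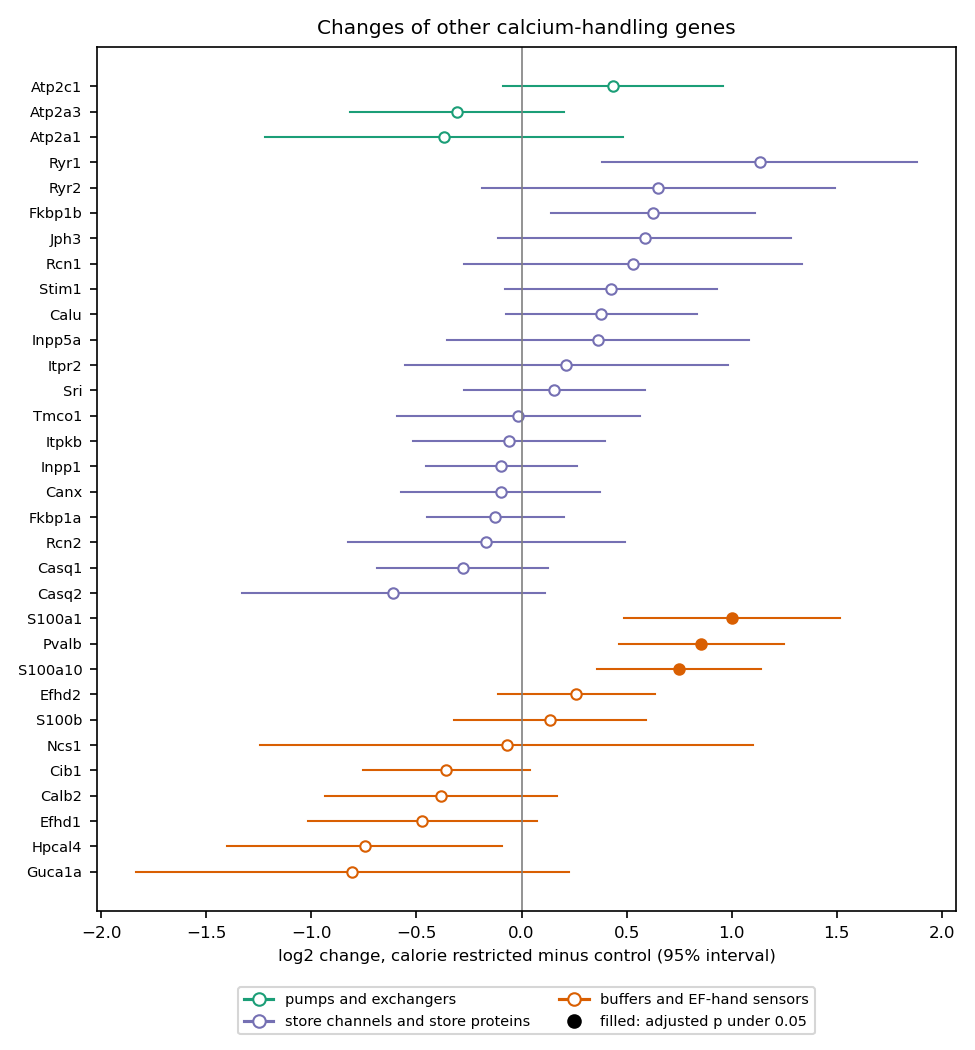
Log2 change, calorie restricted minus control, of 32 other calcium-handling genes with its 95% interval (horizontal axis), coloured by group. Filled points mark the 3 with a limma adjusted p under 0.05, S100a1, Pvalb and S100a10, which all lie above 0.

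Of 11 genes of buffers and EF-hand sensors, 3 rose and 8 did not pass, and the median change was -0.07. That is 27.3% of a short list, against 10.8% of all genes. The same 3 had diets that did not overlap, as did 12.9% of all genes. Changes in this group ran from -0.81 for Guca1a to 1.001 for S100a1, and Hpcal4 had -0.75 (limma adjusted p = 0.118). Hpcal4 had 7.79 in calorie restricted replicate 5, against 9.17 to 9.69 in the other calorie restricted arrays. Guca1a and Hpcal4 did not pass, were picked after their values were seen and are not given with the covariate. Pvalb, the buffer parvalbumin of fast-spiking interneurons, had log2 signals of 12.74, 12.68, 12.85, 11.98 and 12.60 in calorie restricted replicates 1 to 5. Control replicates 1 to 5 had 11.61, 11.84, 11.65, 11.73 and 11.75. The groups did not overlap, and the change was 0.86 ± 0.18 (SE; limma adjusted p = 0.0151). The gene's second probe set passed in the same direction. The threshold was missed after quantile normalization, at 0.33 (limma adjusted p = 0.237), and with the 3' to 5' ratio as a covariate, at 0.75 (limma adjusted p = 0.0533).

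S100a1, a small calcium-binding protein, had log2 signals of 10.23, 10.39, 11.27, 11.00 and 11.38 in calorie restricted replicates 1 to 5, against 10.03, 9.57, 9.80, 9.92 and 9.93 in control replicates 1 to 5. The groups did not overlap, and the change was 1.001 ± 0.237 (SE; limma adjusted p = 0.0237) by a probe set that can match several family members. S100a10, a partner of annexin A2 whose EF hands no longer bind calcium, had 10.05, 10.01, 10.45, 9.59 and 10.25 in calorie restricted replicates 1 to 5, against 9.37, 9.35, 9.33, 9.34 and 9.21 in control replicates 1 to 5. Its groups did not overlap either, and the change was 0.75 ± 0.18 (SE; limma adjusted p = 0.0250). The other tested probe set of S100a10 lay below 0, short of the threshold.

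The calls of both S100 genes were close to the threshold. S100a1 had 0.52 with the 3' to 5' ratio as a covariate (limma adjusted p = 0.143) and missed the threshold without calorie restricted replicate 3 or control replicate 2, 3 or 4, at 0.90, 0.93, 0.99 and 1.02. S100a10 had 0.53 on the deposited scale (limma adjusted p = 0.0585) and 0.52 with that covariate (limma adjusted p = 0.126). With the replicate number as a block its call was also lost (0.75; limma adjusted p = 0.0557). Without calorie restricted replicate 3 it had 0.66 and without any 1 control array 0.72 to 0.76, and it missed the threshold in each. Without calorie restricted replicates 3 and 5, Pvalb, S100a1 and S100a10 had 0.75, 0.69 and 0.56 and passed (limma adjusted p = 0.0216, 0.0420 and 0.0415).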

How the data were processed

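Total RNA of 10 hippocampi was labelled as biotinylated cRNA and hybridised to Affymetrix arrays, per the labels' protocols. The deposited table holds 1 linear intensity per probe set and array, made by the authors with MAS5, per the submitters' processing notes. Neither its version nor its settings could be read from these sources. Trimmed of 2% at either end, the mean intensity was 500.2 to 500.4 on each array.

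Values under 1 (41 of 124880) were set to 1 and taken to log2. The 66 control probe sets were left out, and of the other 12422 those with a mean under the 40th percentile, which left 7453. Each array was centred on their median, so that p-values test the printed changes. Names came from the platform annotation (1 symbol for 10833 probe sets), updated through RefSeq gene numbers.

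The comparison of diets used limma 3.58.1 in R 4.3.3 (lmFit, eBayes with a variance trend), with Benjamini-Hochberg adjustment over all tested probe sets. Precision is limited by 5 arrays per diet. On simulated data with 7453 probe sets, 200 had a known change. The fit recovered 2% of changes of 0.5 on the log2 scale, 46% of 1, 84% of 2 and 88% of 3. Of 114 calls 4 were false. The simulated errors were independent, with the same SD in both diets. In the data the SD was larger in calorie restricted mice in 76.7% of tested probe sets. The simulation also left out the difference in RNA quality, so these figures may not hold for these arrays. Named were all members and, in each group of other calcium genes, up to 3 higher and 3 lower with the smallest adjusted p among those past the threshold. Other calcium genes that did not pass were named after their values were seen. Members and lists were chosen with earlier results of these data known. Besides leaving out each array, 9 other settings were tried, and for the other calcium genes also the mean of all probe sets of a gene.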

Additional observations from a re-analysis of the deposited data

Results flagged for a closer look

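In each diet, the highest or lowest of the 5 arrays was set against the gap to its neighbour for the 11 member probe sets, the 3 named genes and the 3' to 5' ratio. In 4 of these 30 groups 1 array stood apart by Dixon's 95% criterion, which chance alone gives in about 1 of 20. Hpcal1 103835_f_at had 11.32 in control replicate 4, against 10.75 to 10.89 in the other control arrays. The untested Slc8a1 probe set 99525_at had 6.98 in the same control array, against 5.34 to 5.81. Pvalb 96719_i_at had 11.98 in calorie restricted replicate 4, against 12.60 to 12.85 in the other calorie restricted arrays. S100a10 92539_at had 9.21 in control replicate 5, against 9.33 to 9.37 in the other control arrays.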

How the results depend on the processing

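Ryr3 101830_at was lower in calorie restricted mice in all 19 alternatives, at -1.28 to -0.64, and passed in 17. Atp2b2 was lower in the same 19 and passed in 2. The count of members that passed was 2 on the deposited scale, 0 with RNA quality as a covariate in limma (2 at an unadjusted p under 0.05) and 0 to 2 with 1 array left out. Of the other calcium genes 0 passed in limma with that covariate (6 at an unadjusted p under 0.05), 1 with the mean over a gene's probe sets and 1 to 4 with 1 array left out. After quantile normalization 3 of them passed, 2 higher and 1 lower. Over the array 395 of 7453 probe sets passed with the covariate in limma, and 1716 had an unadjusted p under 0.05. With the replicate number as a replicate block 539 passed, and 286 to 1196 with 1 array left out. The array count was 331 and 535 without calorie restricted replicates 3 and 4, and 437, 314, 286, 308 and 511 without control replicates 1 to 5. Diet and RNA quality overlapped in that fit (R2 0.411).

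Deviations of same-numbered arrays correlated at -0.08 to 0.17, which cannot show whether the numbers pair the mice. The main fit took the mice as unpaired. With the block 1 member and 2 other calcium genes passed, S100a10 no longer (limma adjusted p = 0.0557), and 1 of 5 calorie restricted arrays correlated best with its own number.

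Calb1, Hpca, Hpcal1, Ryr3 97126_at, Slc8a1 99524_at and Vsnl1 did not pass in any setting, and turned direction in some. Atp2a2 did not pass in any setting either, and kept its direction in all 19 alternatives. With RNA quality as a covariate Calb1 had -0.10, Hpca 0.34, Hpcal1 -0.25, Ryr3 97126_at -0.048, Slc8a1 99524_at -0.57 and Vsnl1 0.15. Without calorie restricted replicates 3 and 5 Hpca had 0.13, Hpcal1 -0.18, Slc8a1 99524_at -0.27 and Vsnl1 0.072. With array weights Hpcal1 had -0.044 and Slc8a1 99524_at -0.073. Hpcal1 had -0.21 on the deposited scale and -0.30 after quantile normalization, and Vsnl1 0.091 with no filter. With 1 array left out Hpcal1 ran from -0.11 to 0.11, Vsnl1 from -0.16 to 0.086 and Slc8a1 99524_at from -0.079 to 0.46. The direction was kept with array weights for Ryr3 97126_at at 0.44, Atp2a2 at 0.27, Calb1 at 0.24 and Hpca at -0.23. Atp2b2, which passed in 2 settings, had -0.84 with these weights. The cause of these shifts was not tested. Background was not analysed, which limits dim probe sets.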
